A study of Mus musculus with 4 samples.

Results

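Nuclear receptors are transcription factors that carry a DNA-binding domain with zinc fingers and, in most cases, a pocket for a small lipid-soluble ligand such as a steroid, retinoid, bile acid or fatty acid. The set described here holds the 44 mouse genes of this superfamily outside the HNF4 pair that were chosen by symbol, out of 21878 gene rows in the tables. All 44 had a row in each table. Many of these proteins bind DNA as a pair with a retinoid X receptor, exchange corepressors for coactivators when the ligand arrives, and in the liver set bile acid, sterol, fatty acid and drug metabolism. Others, such as the REV-ERB and NR4A proteins, are regulated mainly through how much of them is made.

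RNA was sequenced from cultured mouse cells in a progenitor-like state, into which adult liver cells pass when they are grown in media for transition and then expansion. The comparison is between 2 origins over 4 libraries. HepLPC (n = 2) are named for an origin from hepatocytes, and NPC_LPC (n = 2) come from non-parenchymal cells of the liver. The mice were C57BL/6, with a labelled age of 6 to 8 weeks. The protocol lists tdTomato mice given AAV8-TBG-Cre, a virus whose promoter directs Cre to hepatocytes, for the hepatocytes, and AlbCreERT/R26GFP mice, in which the albumin promoter drives an inducible Cre, for the non-parenchymal cells. If the animals were used in that way, origin, mouse line and virus cannot be told apart. The cell type label of the HepLPC libraries names both origins, and the grouping follows the titles. No label states whether the replicates are separate animals or cultures, and the p-values measure the spread between these libraries only.

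Total counts per library lay between 17575998 and 20625957, and 33 to 35 of the 44 members had a count in a given library. CPM below is the count scaled to a common library size, and values joined by "and" within a group are those of replicates 1 and 2 in that order. FPKM is the authors' value per length of transcript. A count of 3 is used as the floor of detection and equals 0.149 to 0.169 CPM. Differentiated hepatocyte markers other than Hnf4a were low in both origins: of the 9 markers, Apoc3, Cyp2e1 and Tat were at or below the floor in every library, and the summed level of 244 and 252 CPM in HepLPC and 27.7 and 50.04 CPM in NPC_LPC was nearly all Hnf4a. Ttr had counts of 22 and 27 in HepLPC and 0 and 1 in NPC_LPC, Apoa1 counts of 95 and 16 in HepLPC and 0 and 0 in NPC_LPC, and Alb counts of 41 and 2 in HepLPC and 2 and 3 in NPC_LPC. DESeq2 called Ttr and Apoa1 higher in HepLPC (adjusted p = 0.0368 and 0.000502). Both exceeded the floor of 3 counts in HepLPC alone, so a call could only have this direction. Apoa1 rested mostly on HepLPC replicate 1. Hnf4a, the nuclear receptor that heads the hepatocyte programme, rose in HepLPC, at 235 and 249 CPM in HepLPC, against 27.4 and 49.8 CPM in NPC_LPC (log2 fold change 2.65 with an SE of 0.34, edgeR adjusted p = 0.0416, and 0.19 and 0.212 without HepLPC replicate 1 or 2). The 8 bile duct markers summed to 4775 and 2215 CPM in HepLPC and 9504 and 4839 CPM in NPC_LPC, with Epcam at most 1.75 CPM. Spp1 was the largest part of that sum in every library, at 3024 and 904 CPM in HepLPC and 8939 and 4200 CPM in NPC_LPC, while the duct keratins lay the other way, Krt19 at 1434 and 885 CPM in HepLPC and 111 and 275 CPM in NPC_LPC (DESeq2 adjusted p = 6.2e-06) and Krt7 at 103 and 166 CPM in HepLPC and 1.43 and 17.2 CPM in NPC_LPC. The 14 stellate cell and fibroblast markers summed to 551 and 691 CPM in HepLPC and 2583 and 3687 CPM in NPC_LPC, nearly all of it Fbln2, with Pdgfrb, Lrat and Lum at or below the floor. The 6 mesothelial markers summed to 199 and 789 CPM in HepLPC and 579.5 and 234 CPM in NPC_LPC, the 8 endothelial markers to 9.89 and 8.84 CPM in HepLPC and 6.36 and 5.54 CPM in NPC_LPC with Pecam1, Lyve1 and Clec4g at or below the floor, and the 8 leukocyte markers to 26.1 and 16.96 CPM in HepLPC and 82.3 and 21.6 CPM in NPC_LPC with Adgre1, Clec4f and Cd3e at or below it. The hepatocyte, the stellate cell and fibroblast, the endothelial and the bile duct sums did not overlap between origins. The last 3 of these lists held markers of both directions. Of the 7 tested stellate cell and fibroblast markers, 4 fold changes were above 0 and 3 below, with a median log2 value of 0.59. DESeq2 called 1 of them higher in HepLPC and 1 lower. Of the 2 tested endothelial markers, 1 lay above 0 and 1 below. The part of these markers in the results below was not tested. In these bulk libraries, fewer cells of a type and less RNA per cell cannot be told apart.

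Of the 44 genes, 29 had a mean of at least 1 CPM. Another 5 were above the floor in some library but below 1 CPM on average, and 10 never exceeded 3 counts. Among those 10, no read was counted for Esr2 and Pgr, the receptors for oestrogen (beta form) and progesterone, Nr0b1 (DAX1 of the adrenal and gonad), Nr2e1 (TLX of neural stem cells), Nr2e3 (a photoreceptor factor) and Rxrg. The oestrogen-related receptor genes Esrrb and Esrrg, Nr1i3, and Nr5a1, the steroidogenic factor gene, had between 0 and 2 counts per library. Nr1i3 encodes CAR, a drug-sensing receptor that is abundant in mature hepatocytes. Its only count was 1 in NPC_LPC replicate 2. Exons of Nr1i3 share 2160 bases with exons of Tomm40l on the other strand in the GENCODE M21 annotation. Tomm40l was at 14.8 and 17.6 CPM in HepLPC and 17.1 and 15.5 CPM in NPC_LPC. Whether the counting used strand is not stated in the sources used here, so the low Nr1i3 count is uncertain.

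By level per length, Esrra came first, at 15.02 and 31.2 FPKM in HepLPC and 24.1 and 16.1 FPKM in NPC_LPC, followed by Nr1h2 at 9.27 and 18.4 FPKM in HepLPC and 15.7 and 15.3 FPKM in NPC_LPC and Rxra at 13.2 and 9.98 FPKM in HepLPC and 15.1 and 8.89 FPKM in NPC_LPC. Ppard, Nr1d1 and Nr3c1 followed in the order of the mean FPKM over the 4 libraries, at 9.48, 9.05 and 8.15 FPKM. The next members, Rxrb (7.95), Rarg (7.76), Nr2c1 (7.31), Nr2c2 (6.44) and Nr2f6 (5.89), lay closer to one another than their own libraries lay apart, so their order carries no weight. The libraries of Esrra and Nr1h2 overlapped in level, so the order of these 2 genes did not exceed their spread either. Neighbours in the order from Nr1h2 through Rxra, Ppard, Nr1d1 and Nr3c1 to Rxrb overlapped in the same way. The FPKM of all 44 genes summed to 143.8 and 174.4 in HepLPC and 154.0 and 139.7 in NPC_LPC. The sums of the origins overlapped.

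**Figure D1:**
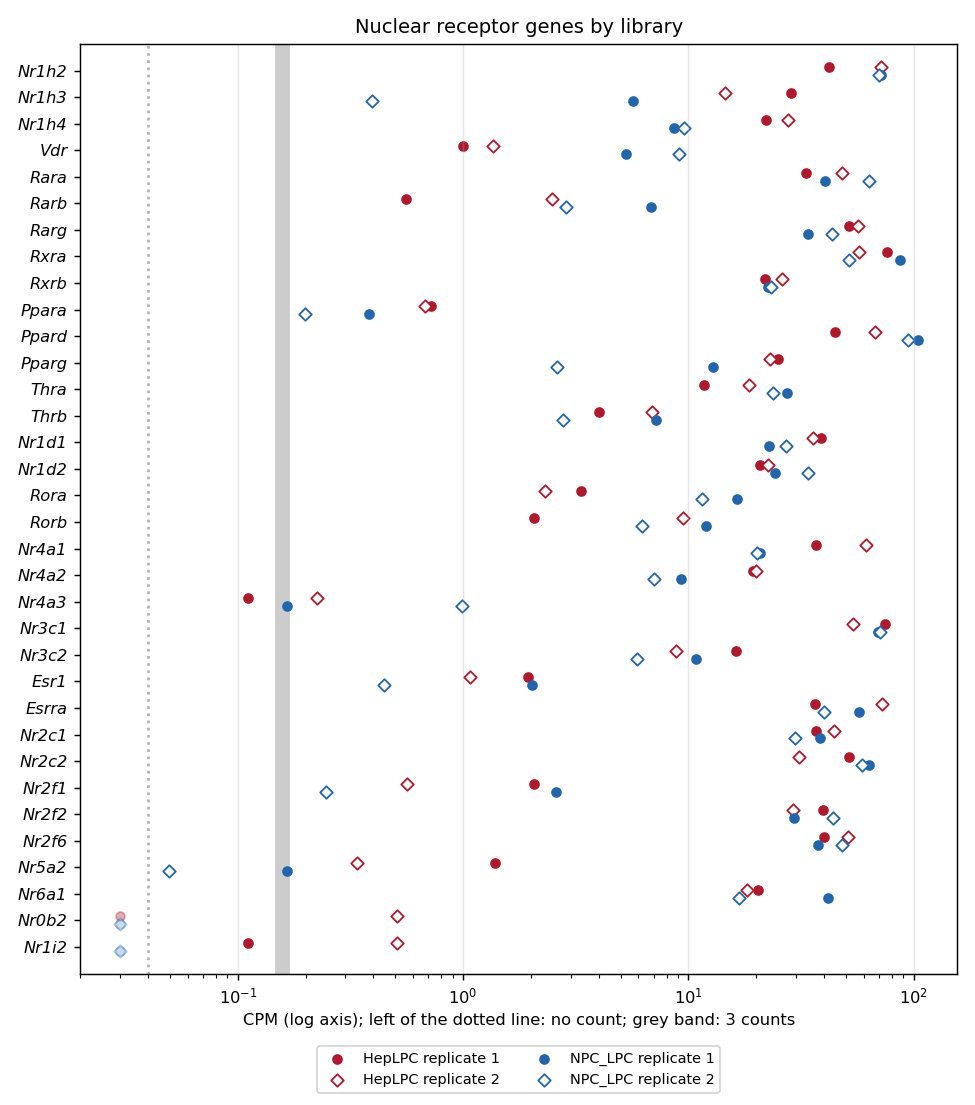
Level in every library, in CPM on a log axis, of each nuclear receptor gene with more than 3 counts in at least 1 library. Red marks are HepLPC replicates and blue marks are NPC_LPC replicates, filled for replicate 1 and open for replicate 2. The grey band is the level of 3 counts and marks left of the dotted line stand for no count. Rora and Vdr lie further left in both HepLPC libraries than in both NPC_LPC libraries, and Nr1h3, Nr1h4, Nr4a1 and Nr4a2 lie further right.

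No member passed the edgeR quasi-likelihood test between the origins at an adjusted p of 0.05, while 1.33% of the 12332 genes tested did (0.633% higher in HepLPC and 0.697% lower). Of the 44 members, 30 were tested and 14 had too few counts. The smallest adjusted p was 0.0691, for Rora. At an unadjusted p of 0.05 edgeR counted 7 members (23.3%: Nr1h3, Nr1h4, Nr4a1, Nr4a2, Ppard, Rora and Vdr), and 23.1% of all tested genes were past the same limit. DESeq2, run on the same counts, called 6 of the 32 members that it gave an adjusted p (18.8%), against 11.6% of all its genes. It called 4 higher in HepLPC (Nr1h3, Nr1h4, Nr4a1 and Nr4a2) beside 5.35% of all genes, and 2 lower (Rora and Vdr) beside 6.24%. Limma-voom called no member.

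The members as a group leaned to neither origin. Their log2 fold changes, HepLPC over NPC_LPC, were above 0 in 15 and below 0 in 15, with a median of 0.0055, against a median of -0.0031 over all tested genes. The groups did not overlap in 15 of the 30 members (50%), and the share over all tested genes was 56.4%. HepLPC was the higher origin in 8 of them (27.9% of all tested genes lay that way) and the lower in 7 (28.6%). Ppara, among the higher ones, passed the count filter only through its HepLPC libraries, so its direction was largely set by the filter. A difference of at least 2-fold by the fitted value was seen in 9 members, or 30.0%, against 22.4% of all tested genes. The median standard error of a member's log2 fold change was 0.347, close to the 0.3502 of all tested genes.

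**Figure D2:**
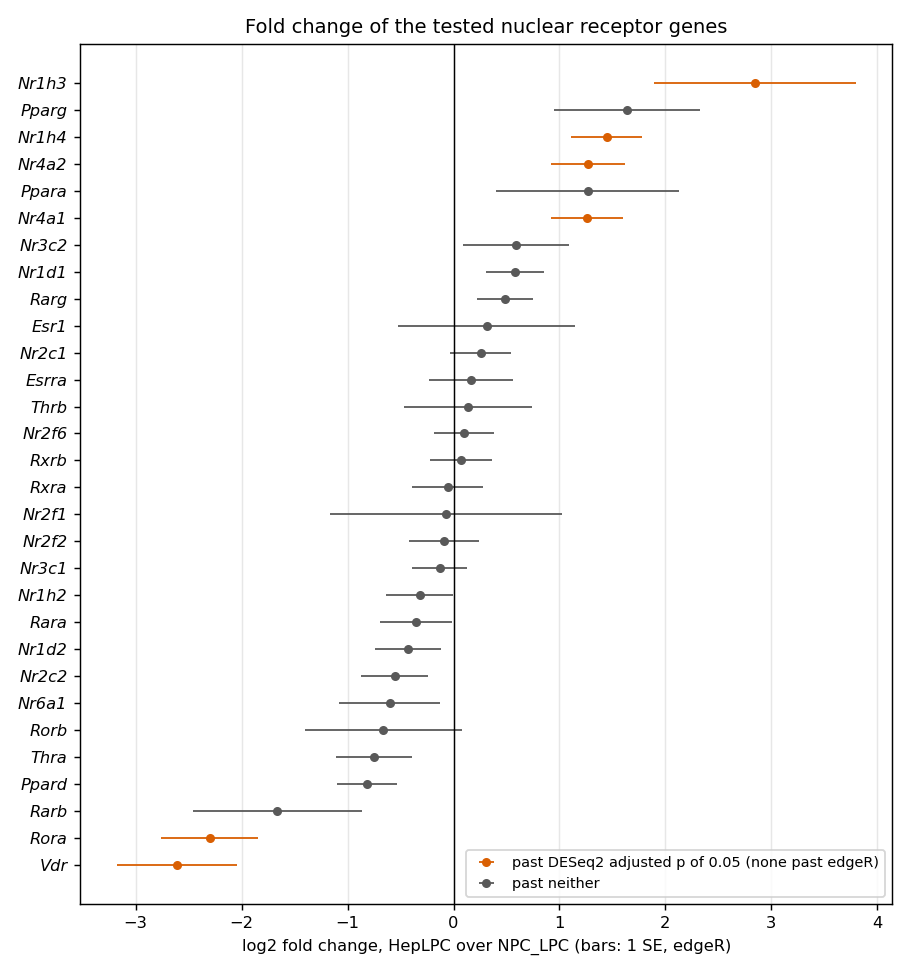
Log2 fold change of each tested nuclear receptor gene, HepLPC over NPC_LPC, from the edgeR fit, with bars of 1 standard error. Positive values are higher in HepLPC. The fitted values run from 2.84 for Nr1h3 to -2.61 for Vdr, and no gene passed the adjusted test.

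Bile acid receptor expression was higher in both HepLPC libraries. Nr1h4 encodes FXR, which senses bile acids and in the liver restrains their synthesis, and its gene lies at chr10:89454234-89533645 (GRCm38, as all positions here). Its level was 22.1 and 27.6 CPM in HepLPC, against 8.61 and 9.602 CPM in NPC_LPC. The libraries of a group lay close together and the groups did not overlap. Nr1h4 averaged 24.8 ± 3.85 CPM in HepLPC and 9.11 ± 0.701 CPM in NPC_LPC (SD, n = 2 each), a ratio of 2.73 (log2 fold change 1.45, SE 0.34). The edgeR adjusted p was 0.08603 and the DESeq2 adjusted p 0.00372. Nr0b2 encodes SHP, a corepressor-like receptor without a DNA-binding domain that FXR induces in the liver, and it had 0 and 9 counts in HepLPC and 0 and 0 in NPC_LPC. Its counts came from a single library. Nr5a2, the LRH-1 gene, whose product acts with FXR and SHP on bile acid synthesis, had counts of 25 and 6 in HepLPC and 3 and 1 in NPC_LPC. Of 10 bile acid and FXR responsive genes, 4 stayed at or below 3 counts in every library, among them Cyp7a1 and Cyp8b1, the enzymes of bile acid synthesis. The 2 tested ones did not pass edgeR (both had an unadjusted p under 0.05) and limma-voom called neither, while DESeq2 called both higher. They are Fgfr4, the receptor for the gut hormone FGF15, at 26.99 and 29.2 CPM in HepLPC and 8.83 and 1.78 CPM in NPC_LPC, and Fgf15 itself, at 0.833 and 1.69 CPM in HepLPC and 0 and 0 CPM in NPC_LPC. Fgf15 had only 15 and 30 counts in HepLPC. It passed the edgeR filter through HepLPC alone, so its direction there was set in advance.

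A RefSeq start inside the Nr1h4 gene is shown because its upstream window holds the core element AGGTCA, which many nuclear receptors bind. It is not the outermost start of the gene. The 250 bases before the start (chr10:89506659-89506908 on the minus strand, RefSeq sequence on GRCm38.p6), printed 5′ to 3′ in the direction of the gene with that element in capitals as its reverse complement, read:
Nr1h4: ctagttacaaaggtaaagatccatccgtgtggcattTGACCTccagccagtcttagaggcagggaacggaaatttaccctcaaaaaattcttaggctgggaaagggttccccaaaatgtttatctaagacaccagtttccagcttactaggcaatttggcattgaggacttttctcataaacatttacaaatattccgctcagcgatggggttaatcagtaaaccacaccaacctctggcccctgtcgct
The match begins 214 bases before the start. Promoter windows were found for 41 of the 44 members, with 61 starts between them. AGGTCA on either strand was present in 11 of these 61 windows, in 10 genes, and in 14.0% of 32851 RefSeq windows of the same length. The longer monomer element AAAGGTCA, which contains AGGTCA, was found at Rxra and Rxrg and in 1.34% of all windows. A match of letters is a description and does not show that a receptor binds there.

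The sterol receptor pair differed in composition between libraries. Nr1h3 encodes LXRα and Nr1h2 encodes LXRβ, oxysterol sensors that turn on cholesterol export and fatty acid synthesis genes, LXRα mainly in liver and fat and LXRβ in most tissues. Nr1h3 (chr2:91184061-91202829) was at 28.6 and 14.6 CPM in HepLPC, against 5.704 and 0.396 CPM in NPC_LPC. The groups did not overlap, but the NPC_LPC libraries differed from each other far more than the HepLPC ones, with counts of 514 and 259 in HepLPC and 104 and 8 in NPC_LPC. The log2 fold change was 2.84 (SE 0.95), with an edgeR adjusted p of 0.1602 and a DESeq2 adjusted p of 0.0302. Without NPC_LPC replicate 1, which had the higher Nr1h3 level of its group, the log2 fold change was 5.76 and the edgeR adjusted p 0.0378, and without NPC_LPC replicate 2 they were 1.92 and 0.227. The size of the difference and its call thus turn on which NPC_LPC library is kept. Nr1h2 was at 41.9 and 71.5 CPM in HepLPC and 71.5 and 70.1 CPM in NPC_LPC, and the groups overlapped. The share of Nr1h3 in the summed FPKM of the pair was 47.8 and 19.95% in HepLPC and 9.88 and 0.678% in NPC_LPC. Of 10 sterol and LXR responsive genes, 8 were tested, edgeR called none (2 had an unadjusted p under 0.05), limma-voom called none, and DESeq2 called 1 higher and 1 lower. Scd1, a fatty acid desaturase, was the higher one at 225 and 179 CPM in HepLPC and 7.35 and 28.9 CPM in NPC_LPC (DESeq2 adjusted p = 1.87e-07, edgeR adjusted p = 0.0627). The lower one was Abca1, the cholesterol exporter, at 0.722 and 0.225 CPM in HepLPC and 8.17 and 2.18 CPM in NPC_LPC (DESeq2 adjusted p = 0.0111, edgeR adjusted p = 0.125). These LXR responsive genes thus lay in opposite directions. The most abundant of the list, the desaturase gene Scd2, was at 853 and 1363 CPM in HepLPC and 1918 and 1004 CPM in NPC_LPC.

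The PPARs sense fatty acids: PPARα drives fat burning in hepatocytes, PPARγ is the master factor of fat cells, and PPARδ is present in most tissues. Pparg (chr6:115360879-115490404) was at 24.99 and 22.9 CPM in HepLPC, against 12.8 and 2.62 CPM in NPC_LPC. It was higher in both HepLPC libraries, and NPC_LPC replicate 2 was far below replicate 1. Its log2 fold change was 1.64 (SE 0.69), with an edgeR adjusted p of 0.226 and a DESeq2 adjusted p of 0.116. The log2 fold change was 3.21 without NPC_LPC replicate 1 and 0.9 without NPC_LPC replicate 2. Ppard (chr17:28232754-28301469) lay the other way, at 44.9 and 67.5 CPM in HepLPC, against 104 and 94.1 CPM in NPC_LPC, and the NPC_LPC mean was 1.76 times the HepLPC mean (log2 fold change -0.82 with an SE of 0.28, edgeR adjusted p = 0.168, DESeq2 adjusted p = 0.119). Ppara, the dominant member in mature hepatocytes, had counts of only 13 and 12 in HepLPC and 7 and 4 in NPC_LPC. In the summed FPKM of the 3 genes, Pparg held 45.4 and 31.5% in HepLPC and 14.7 and 4.19% in NPC_LPC, and Ppard held 54.01 and 68.2% in HepLPC and 85.1 and 95.7% in NPC_LPC. Of 15 PPAR responsive genes, 9 were tested, edgeR and limma-voom called none (2 had an unadjusted edgeR p under 0.05), and DESeq2 called Angptl4, an inhibitor of lipoprotein lipase, at 94.4 and 97.9 CPM in HepLPC and 15.5 and 41.4 CPM in NPC_LPC (adjusted p = 0.00616). The 9 had a median log2 fold change of 0.21. Plin2, the lipid droplet coat protein, was at 142 and 301 CPM in HepLPC and 494 and 397 CPM in NPC_LPC.

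Drug-sensing receptors had very few counts. Nr1i2, which encodes PXR, had counts of 2 and 9 in HepLPC and 0 and 0 in NPC_LPC. Nr1i3, whose low count is uncertain, was described above. Their responsive genes in mature liver, Cyp3a11, Cyp2b10 and Cyp2a5, were at or below the floor in every library. Of 11 such genes, 6 were tested. edgeR and limma-voom called none, 3 had an unadjusted edgeR p under 0.05, and 5 of the 6 fold changes were above 0 with a median log2 value of 1.18. DESeq2 called Abcc3, an exporter of conjugated bile acids and drugs, at 344 and 201 CPM in HepLPC and 93.2 and 19.9 CPM in NPC_LPC (adjusted p = 0.00706). Por, which passes electrons to cytochromes P450, was at 462 and 443 CPM in HepLPC and 312 and 152 CPM in NPC_LPC.

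**Figure D3:**
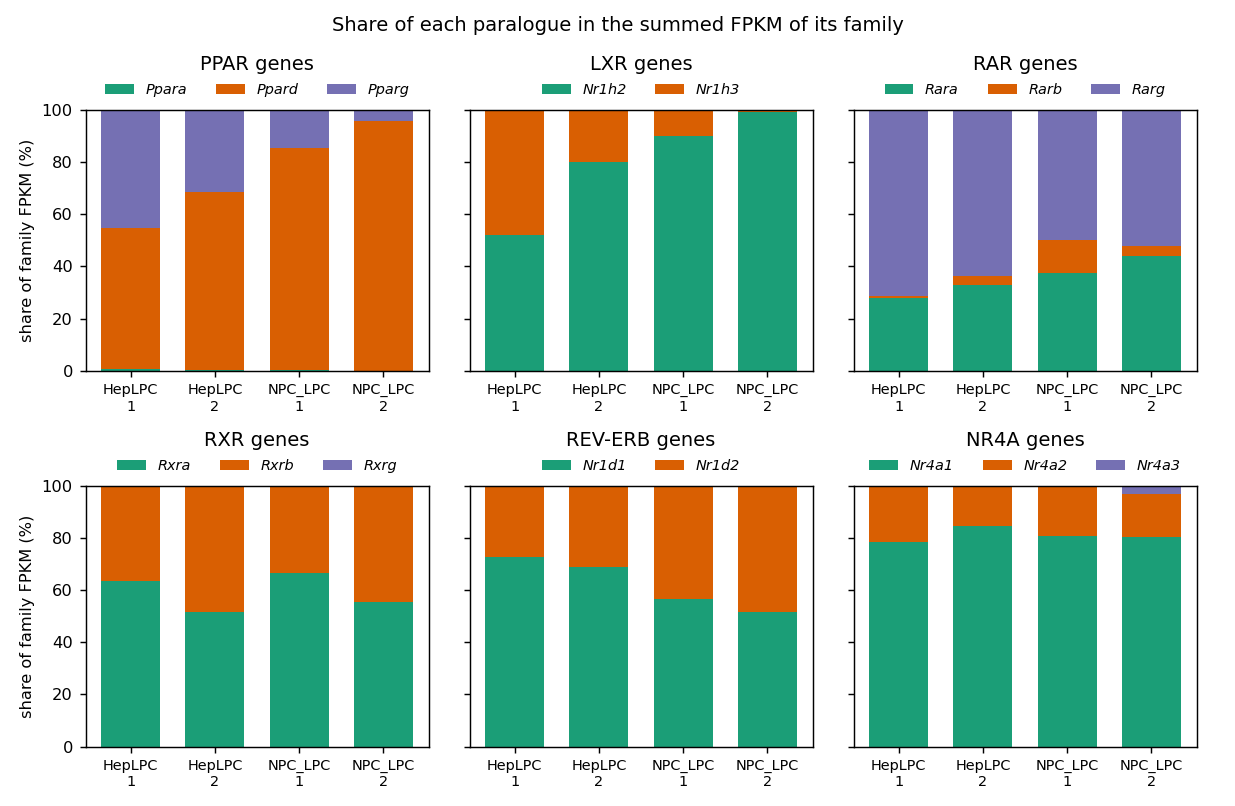
Share of each paralogue in the summed FPKM of its family, in percent, for the PPAR, LXR, RAR, RXR, REV-ERB and NR4A genes. Each bar is a library, HepLPC replicates 1 and 2 on the left and NPC_LPC replicates 1 and 2 on the right. Pparg, Nr1h3, Rarg and Nr1d1 hold a larger share in both HepLPC bars than in both NPC_LPC bars, whereas the shares of Nr4a1, Nr4a2, Rxra and Rxrb overlap between origins.

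Retinoid X receptors, the common partners of the LXR, FXR, PPAR, RAR, vitamin D and thyroid hormone receptors, overlapped between the origins. Rxra was at 75.98 and 57.4 CPM in HepLPC and 86.99 and 51.7 CPM in NPC_LPC and Rxrb at 21.9 and 26.02 CPM in HepLPC and 22.5 and 23.2 CPM in NPC_LPC. Their log2 fold changes were -0.06 (SE 0.33) and 0.07 (SE 0.29). Rxrg, the form of muscle and brain, had no count.

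Retinoic acid receptors, which bind DNA with a retinoid X receptor, were present as all 3 forms. Rarg was at 51.9 and 56.4 CPM in HepLPC and 33.8 and 43.3 CPM in NPC_LPC, without overlap (log2 fold change 0.49 with an SE of 0.26, edgeR adjusted p = 0.322), and Rara at 33.1 and 48.1 CPM in HepLPC and 40.4 and 63.1 CPM in NPC_LPC, with overlap. Rarg lies on chromosome 15, whose tested genes had a median log2 fold change of 0.65, and the part of that shift in its value was not tested. The share of Rarg in the summed FPKM of the 3 receptors was 71.3 and 63.7% in HepLPC and 49.9 and 52.2% in NPC_LPC. Rarb, which retinoic acid itself induces in many cells, was at 0.555 and 2.48 CPM in HepLPC, against 6.801 and 2.87 CPM in NPC_LPC. Both HepLPC libraries lay below both NPC_LPC libraries, but the replicates of each group differed more than 2-fold, and the edgeR adjusted p was 0.275 (log2 fold change -1.66, SE 0.80). The log2 fold change was -0.946 and -3.1 without HepLPC replicate 1 or 2, and -0.903 and -2.16 without NPC_LPC replicate 1 or 2. Exons of Rarb share 1793 bases with exons of Top2b on the other strand in the GENCODE M21 annotation, and Top2b was at 97.5 and 208 CPM in HepLPC and 196 and 172 CPM in NPC_LPC. No source used here states whether the counting used strand, so the low Rarb count is uncertain. The median log2 fold change of the 397 tested genes on chromosome 14, which carries Rarb, was -0.42, and its part in the Rarb value was not tested.

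The window before the RefSeq start inside the Rarb gene is shown because it holds a direct repeat of GTTCA with 6 bases between the copies, a form of element through which retinoic acid receptors act. The pattern and the window were chosen after the sequences had been seen. The 250 bases before the start (chr14:16575477-16575726, minus strand, RefSeq on GRCm38.p6), 5′ to 3′ in the direction of the gene with the repeat in capitals, spacer included, read:
Rarb: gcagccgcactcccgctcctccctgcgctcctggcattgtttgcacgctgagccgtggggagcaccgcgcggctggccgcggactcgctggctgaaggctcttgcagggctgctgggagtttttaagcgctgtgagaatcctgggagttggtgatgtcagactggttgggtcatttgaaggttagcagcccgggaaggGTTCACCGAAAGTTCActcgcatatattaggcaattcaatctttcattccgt
The element begins 52 bases before the start. It was found on either strand in 22 of the 32851 windows, or 0.067%, and in no other member.

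Of 11 retinoic acid responsive genes, 7 were tested (median log2 fold change 0.25). edgeR and limma-voom called none, and 2 had an unadjusted edgeR p under 0.05. Stra6, the membrane receptor for vitamin A, was at 533 and 396 CPM in HepLPC, against 65.1 and 7.72 CPM in NPC_LPC (log2 fold change 3.68 with an SE of 0.93, edgeR adjusted p = 0.102), and DESeq2 called it higher (adjusted p = 0.0402). Tgm2, a transglutaminase, was at 279.6 and 326 CPM in HepLPC and 569 and 431 CPM in NPC_LPC.

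The vitamin D receptor gene was lower in both HepLPC libraries. Vdr (chr15:97854427-97908296) mediates the action of active vitamin D and, in the liver, is mostly known from non-parenchymal and bile duct cells. Its level was 0.9997 and 1.35 CPM in HepLPC, against 5.27 and 9.11 CPM in NPC_LPC, from counts of 18 and 24 in HepLPC and 96 and 184 in NPC_LPC. All 4 values were low, and the groups did not overlap. The NPC_LPC mean was 6.11 times the HepLPC mean (log2 fold change -2.61, SE 0.57), with an edgeR adjusted p of 0.0786 and a DESeq2 adjusted p of 0.00254. Cyp24a1, the vitamin D degrading enzyme that the receptor induces strongly, was at or below the floor in every library. Vdr lies on chromosome 15, whose 477 tested genes had a median log2 fold change of 0.65, opposite in sign to that of Vdr.

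Thyroid hormone receptors were represented mainly by Thra, which held 93.1 and 91.7% in HepLPC and 93.8 and 96.95% in NPC_LPC of the FPKM of the pair. Thra was at 11.7 and 18.7 CPM in HepLPC and 27.4 and 23.8 CPM in NPC_LPC, without overlap (log2 fold change -0.75 with an SE of 0.36, edgeR adjusted p = 0.272). Thrb, the main form of mature liver, was at 3.999 and 6.87 CPM in HepLPC and 7.19 and 2.77 CPM in NPC_LPC, with overlap. Of 6 vitamin D and thyroid hormone responsive genes, Cyp24a1, Thrsp and Dio1 were at or below the floor. The 3 tested ones had a median log2 fold change of 0.091, edgeR, limma-voom and DESeq2 called none, and 1 had an unadjusted edgeR p under 0.05. They include the malic enzyme gene Me1, at 537 and 488 CPM in HepLPC and 362 and 251 CPM in NPC_LPC, and Klf9, at 108 and 114 CPM in HepLPC and 163 and 45.4 CPM in NPC_LPC.

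Among the receptors tied to the circadian clock, Rora stood furthest apart. ROR proteins activate and REV-ERB proteins repress the clock gene Arntl through the same DNA elements. Arntl itself was at 26.8 and 21.9 CPM in HepLPC and 29.02 and 23.5 CPM in NPC_LPC, with overlap (log2 fold change -0.11, SE 0.30). Rora (chr9:68653404-69388246) was at 3.33 and 2.31 CPM in HepLPC, against 16.5 and 11.5 CPM in NPC_LPC. Both HepLPC libraries were far below both NPC_LPC libraries, and replicates differed 1.44-fold in HepLPC and 1.43-fold in NPC_LPC. Rora averaged 2.82 ± 0.723 CPM in HepLPC and 13.97 ± 3.52 CPM in NPC_LPC (SD, n = 2 each), so the NPC_LPC mean was 4.95 times the HepLPC mean. The log2 fold change was -2.30 (SE 0.45), with the smallest edgeR adjusted p of the members, 0.0691, and a DESeq2 adjusted p of 0.000369. Rorb was at 2.06 and 9.46 CPM in HepLPC and 12.01 and 6.24 CPM in NPC_LPC, and its groups overlapped, with HepLPC replicate 1 far below replicate 2. Nr1d1, the REV-ERBα gene, was at 38.9 and 35.9 CPM in HepLPC and 22.9 and 27.1 CPM in NPC_LPC, a ratio of 1.498 without overlap (log2 fold change 0.58 with an SE of 0.28, edgeR adjusted p = 0.269). Nr1d2, the REV-ERBβ gene, lay the other way at 20.8 and 22.5 CPM in HepLPC and 24.4 and 33.8 CPM in NPC_LPC (log2 fold change -0.43 with an SE of 0.31, edgeR adjusted p = 0.454). Nr1d2 lies on chromosome 14, where the median log2 fold change of tested genes was -0.42, and the part of that shift in its value was not tested. Nr1d1 held 72.5 and 68.95% in HepLPC and 56.4 and 51.5% in NPC_LPC of the FPKM of the pair.

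Nr1d1 (chr11:98767932-98775377) and Thra (chr11:98740776-98769006) overlap tail to tail on opposite strands, and their GENCODE exons share 263 bases. Without a stated strand setting, reads from the shared stretch cannot be assigned to either gene. The fitted changes of these neighbours had opposite signs.

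Of 15 other clock genes, 14 were tested, and 6 of their fold changes were above 0 and 8 below (median -0.14 on the log2 scale). edgeR called none (2 had an unadjusted p under 0.05), limma-voom none, and DESeq2 called Per2 and Ciart higher in HepLPC. Per2, a clock repressor, was at 25.1 and 23.6 CPM in HepLPC and 11.96 and 10.5 CPM in NPC_LPC (DESeq2 adjusted p = 0.0296), and Ciart, another repressor, at 8.33 and 9.69 CPM in HepLPC and 2.52 and 2.57 CPM in NPC_LPC (DESeq2 adjusted p = 0.00903). The most abundant were Bhlhe40, at 259.6 and 325 CPM in HepLPC and 419 and 239 CPM in NPC_LPC, and Clock, at 64.3 and 59.2 CPM in HepLPC and 70.4 and 90.3 CPM in NPC_LPC. The E-box CACGTG, through which CLOCK acts, was found in 5 member windows (Esr2, Nr0b2, Nr1i3, Rara and Thrb) and in 6.02% of all windows. No source used here gives times of harvest.

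The NR4A genes encode orphan receptors that are made within the early response of cells to growth factors, stress and calcium or cAMP signals, and their activity follows their amount. Nr4a1 (chr15:101253902-101274795) was at 36.9 and 61.6 CPM in HepLPC, against 20.8 and 20.2 CPM in NPC_LPC. The NPC_LPC libraries were nearly equal, and both HepLPC libraries lay above them, at a mean 2.397 times as high (log2 fold change 1.26 with an SE of 0.34, edgeR adjusted p = 0.114, DESeq2 adjusted p = 0.0187). Nr4a2 (chr2:57106830-57124003) had nearly the same ratio, 2.41, at 19.3 and 20 CPM in HepLPC, against 9.27 and 7.03 CPM in NPC_LPC (log2 fold change 1.27 with an SE of 0.35, edgeR adjusted p = 0.1203, DESeq2 adjusted p = 0.0241). Nr4a3 was low, with counts of 2 and 4 in HepLPC and 3 and 20 in NPC_LPC, and was not tested. The summed FPKM of the 3 genes was 7.75 and 11.2 FPKM in HepLPC and 4.38 and 4.12 FPKM in NPC_LPC, while the share of Nr4a1 in it stayed between 78.5% and 84.5% in the 4 libraries. Nr4a1 lies on chromosome 15, where the median log2 fold change of tested genes was 0.65, and the part of that shift in its value was not tested. Nr4a2 lies on chromosome 2, where the median was 0.027.

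The 250 bases before one RefSeq start of each NR4A gene are shown because all 3 hold several copies of TGACG, the core of the element that binds CREB, a factor of the cAMP response. The motif and the windows were chosen after the sequences had been seen. The windows lie at chr15:101266596-101266845 (plus strand), chr2:57124004-57124253 (minus strand) and chr4:48045055-48045304 (plus strand), RefSeq on GRCm38.p6. They are printed 5′ to 3′ in the direction of the gene, with TGACG or its reverse complement CGTCA in capitals:
Nr4a1: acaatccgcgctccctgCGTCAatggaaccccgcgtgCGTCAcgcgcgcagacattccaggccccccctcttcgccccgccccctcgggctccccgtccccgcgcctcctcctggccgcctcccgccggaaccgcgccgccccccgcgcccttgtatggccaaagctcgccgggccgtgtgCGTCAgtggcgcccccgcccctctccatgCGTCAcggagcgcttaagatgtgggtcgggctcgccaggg
Nr4a2: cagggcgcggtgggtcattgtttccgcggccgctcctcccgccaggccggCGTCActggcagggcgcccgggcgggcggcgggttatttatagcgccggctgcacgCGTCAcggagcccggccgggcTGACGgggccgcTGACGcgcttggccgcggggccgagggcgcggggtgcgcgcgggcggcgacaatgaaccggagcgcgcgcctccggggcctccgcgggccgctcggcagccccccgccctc
Nr4a3: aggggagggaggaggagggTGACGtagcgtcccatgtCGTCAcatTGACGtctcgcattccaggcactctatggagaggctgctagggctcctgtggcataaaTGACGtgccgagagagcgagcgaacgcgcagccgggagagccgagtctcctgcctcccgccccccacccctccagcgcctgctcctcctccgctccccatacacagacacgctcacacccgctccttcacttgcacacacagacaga
Each window holds 4 matches. They begin 233, 213, 69 and 40 bases before the start in Nr4a1, 200, 144, 123 and 111 bases before it in Nr4a2, and 231, 213, 205 and 147 bases before it in Nr4a3. At least 1 match on either strand was found in 13 member windows and in 17.8% of all 32851 windows. The share of all windows with 4 matches was not counted. The windows are rich in G and C, at 74.4%, 80.0% and 63.6% in the order printed. The full palindrome TGACGTCA, which contains TGACG, was found in none of the 3, in 1 other member (Nr2e1), and in 1.55% of all windows. The serum response element known as the CArG box was found in 1 member window, that of Nr2f6, and in 1.47% of all windows.

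The other immediate early genes lay in the same direction as Nr4a1 and Nr4a2. All 16 were tested and all 16 fitted fold changes were above 0 (median 1.76 on the log2 scale, against -0.0031 over all tested genes). Egr2, Egr3 and Klf2 passed the count filter only through HepLPC, so their direction was largely set by the filter. Their counts were 19 and 31, 46 and 126, and 24 and 19 in HepLPC. In NPC_LPC they were 6 and 2, 0 and 5, and 0 and 6. edgeR called 2 of them higher in HepLPC and none lower, DESeq2 called 8 higher and none lower, and limma-voom called none. Atf3, a stress-induced factor, rose in HepLPC, at 62.04 and 72.6 CPM in HepLPC, against 8.72 and 9.01 CPM in NPC_LPC (log2 fold change 2.92 with an SE of 0.28, edgeR adjusted p = 0.0317). Fosl1, an AP-1 subunit, rose as well, at 274 and 283 CPM in HepLPC, against 99.3 and 95.1 CPM in NPC_LPC (log2 fold change 1.52 with an SE of 0.22, edgeR adjusted p = 0.0451). When a library was left out, the edgeR adjusted p ran from 0.0323 to 0.201 for Atf3 and from 0.0974 to 0.212 for Fosl1. Fosl1 lost its call without any one library, and Atf3 kept its call only when NPC_LPC replicate 1 was the one left out. The origins overlapped for Junb, Ier3, Klf6 and Btg2, with Junb at 126 and 304 CPM in HepLPC and 147 and 244 CPM in NPC_LPC. The other genes of the list were higher in both HepLPC libraries, as were 27.9% of all tested genes. Fos was at 24.1 and 82.6 CPM in HepLPC and 0.823 and 2.72 CPM in NPC_LPC (edgeR adjusted p = 0.0582). Jun was at 248 and 372 CPM in HepLPC and 59.02 and 103 CPM in NPC_LPC (edgeR adjusted p = 0.0675). The summed level of the list was 2160 and 2530 CPM in HepLPC and 1007 and 1433 CPM in NPC_LPC.

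**Figure D4:**
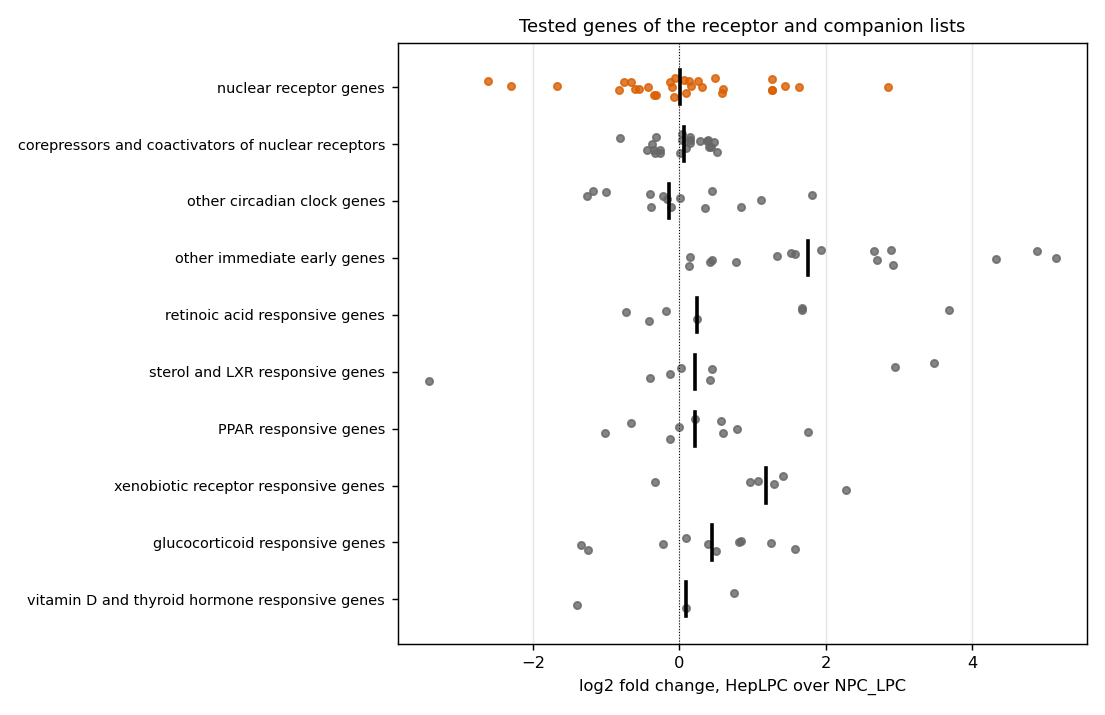
Log2 fold changes, HepLPC over NPC_LPC, of the tested genes in each companion list. Each point is a gene, orange for the nuclear receptors and grey for other genes, and the black bar of a list is its median. Lists with fewer than 3 tested genes are not drawn. All 16 immediate early genes lie above 0, among them Egr2, Egr3 and Klf2, which passed the count filter only through HepLPC. The corepressor and coactivator genes lie on both sides of 0 with a median of 0.065.

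Steroid receptors were represented by the glucocorticoid receptor gene Nr3c1 and the mineralocorticoid receptor gene Nr3c2. Nr3c1 was at 74.5 and 53.8 CPM in HepLPC and 69.3 and 71.2 CPM in NPC_LPC and the groups overlapped (log2 fold change -0.13, SE 0.26). Nr3c2 was at 16.3 and 8.84 CPM in HepLPC and 10.8 and 5.89 CPM in NPC_LPC, again with overlap (log2 fold change 0.59, SE 0.50). Esr1, the oestrogen receptor alpha gene and a liver receptor in adult mice, was at 1.94 and 1.07 CPM in HepLPC and 2.03 and 0.446 CPM in NPC_LPC. Of 13 glucocorticoid responsive genes, 10 were tested, 7 fold changes were above 0 and 3 below, and the median log2 fold change was 0.45. edgeR and limma-voom called none, 3 had an unadjusted edgeR p under 0.05, and DESeq2 called 2 higher, Dusp1 and Sgk1. Dusp1, a phosphatase of MAP kinases that is also an immediate early gene, was at 457 and 429.7 CPM in HepLPC and 183 and 188 CPM in NPC_LPC (DESeq2 adjusted p = 0.0001099), and the kinase gene Sgk1 at 183 and 242 CPM in HepLPC and 95 and 46.9 CPM in NPC_LPC (DESeq2 adjusted p = 0.00416). Errfi1, an inhibitor of the EGF receptor, was at 222 and 154 CPM in HepLPC and 121 and 165 CPM in NPC_LPC. Tat and Pck1, glucocorticoid responsive enzymes of mature hepatocytes, were at or below the floor in every library.

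The remaining orphan receptors, those without an agreed natural ligand, were mostly well expressed and overlapped between the origins. Esrra, which drives mitochondrial genes together with PGC-1 coactivators, was at 36.5 and 72.6 CPM in HepLPC and 57.2 and 40.1 CPM in NPC_LPC. Its replicates differed 1.99-fold in HepLPC, and the log2 fold change was 0.16 (SE 0.40). The COUP-TF proteins act mostly as repressors in development. Nr2f2, the COUP-TFII gene, was at 39.5 and 29.1 CPM in HepLPC and 29.3 and 43.8 CPM in NPC_LPC and Nr2f6 at 40.2 and 51.2 CPM in HepLPC and 37.4 and 47.9 CPM in NPC_LPC, both with overlap. Nr2f1, the COUP-TFI gene, was low and uneven, at 2.06 and 0.563 CPM in HepLPC and 2.58 and 0.248 CPM in NPC_LPC. Nr6a1, the germ cell nuclear factor gene, was at 20.3 and 18.2 CPM in HepLPC and 41.8 and 16.8 CPM in NPC_LPC, where NPC_LPC replicate 1 stood above the other 3 libraries. Nr2c1, the TR2 gene, was at 36.9 and 44.2 CPM in HepLPC and 38.3 and 29.6 CPM in NPC_LPC with overlap. Nr2c2, the TR4 gene, was at 51.7 and 31.1 CPM in HepLPC and 63.02 and 58.7 CPM in NPC_LPC without overlap (log2 fold change -0.56 with an SE of 0.32, edgeR adjusted p = 0.345). Its exons share 3533 bases with those of Mrps25 on the other strand, which was at 68.5 and 57.6 CPM in HepLPC and 32.9 and 55.5 CPM in NPC_LPC, so its count is uncertain in the same way as that of Rarb. Nr2f6 and Esrra share 914 and 73 exonic bases with Ocel1 and Trmt112 on the other strand.

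The corepressors and coactivators through which many of these receptors act were expressed in both origins. All 22 genes were tested, 14 fold changes were above 0 and 8 below, and the median log2 fold change was 0.065. edgeR, DESeq2 and limma-voom called none, and none had an unadjusted edgeR p under 0.05, a limit that 23.1% of all tested genes passed. Ncor1, a corepressor, was at 375 and 211 CPM in HepLPC and 354 and 349 CPM in NPC_LPC. Ppargc1a, the PGC-1α gene, varied most between replicates, at 22.99 and 20.1 CPM in HepLPC and 31.4 and 1.49 CPM in NPC_LPC.

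Several members differed widely between replicates of one origin. In HepLPC, 3 of the 30 tested members were at least 2-fold apart (Nr2f1, Rarb and Rorb, 10%, against 15.97% of all tested genes). In NPC_LPC, 7 were (Esr1, Nr1h3, Nr2f1, Nr6a1, Pparg, Rarb and Thrb, 23.3%, against 15.8%). The median ratio between replicates was 1.41 in HepLPC and 1.43 in NPC_LPC, against 1.33 and 1.28 over all tested genes.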

How the data were processed

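RNA of cultured mouse liver progenitor-like cells was sequenced in 4 libraries, 2 labelled HepLPC and 2 labelled NPC_LPC. Per the labels' protocols, the kit was a stranded one for messenger RNA, read from both ends. Per the submitters' processing notes, Trimmomatic, HISAT2, Cufflinks, HTSeq and DESeq were used with the build mm10. Not given in the sources used here are tool versions, the annotation and whether reads were counted by strand. Per the file headers, the authors deposited a read count and an FPKM value for each gene symbol. The counts were used for all tests, and the deposited FPKM for levels per length and as an alternative.

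The counts of 12332 genes that passed filterByExpr were fitted with edgeR 4.0.16 (R 4.3.3, TMM factors) by glmQLFit in its current form and glmQLFTest with group as the only term. P-values are two-sided and adjusted by the Benjamini-Hochberg method over all tested genes, with 0.05 as the threshold, and fold changes are HepLPC over NPC_LPC. Standard errors were derived from the F statistic. The test was checked on simulated counts in which every gene had the same spread and only large changes were set. That check does not cover genes with smaller changes or uneven replicates. With 2 libraries a group, an exact permutation test of 1 gene cannot go below p = 0.333 and was not run. Floors of 3 counts cover counting error only, since amplified reads are not independent molecules.

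The 44 members, the 11 companion lists, the 6 marker lists and the tests were chosen with earlier results of these data known. All members are accounted for, those with a mean of at least 1 CPM with values in each library. In each companion list the text names up to 3 genes past the edgeR test, or the 2 most abundant where none passed, except 2 genes that are not reported here. Genes named for a DESeq2 call alone, and a few others, were picked with their values in view. Tried as alternatives were different scaling factors, filters and thresholds, the older form of the edgeR test, DESeq2 1.42.0, limma-voom and limma (3.58.1) on log2 FPKM, a replicate block, and leaving out each library. Gene positions and promoter windows come from RefSeq (GRCm38.p6), and exon overlaps from GENCODE M21 on the same assembly. Windows are the 250 bases before each start, searched on both strands. The zinc finger patterns of the proteins were not analysed here.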

Additional observations from a re-analysis of the deposited data

How the results depend on the processing

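Of 30 tested members, 17 kept the sign of their fold change in every alternative run, and 13 reversed it in at least 1. No member passed under any edgeR or limma setting with all 4 libraries, while DESeq2 called 6. The count was 0 to 1 when a library was left out, the 1 being Nr1h3. Over all genes the main count of 164 became 90 with no filter, 53 with the older edgeR form, 1521 with DESeq2, 5 with limma-voom, 0 at an adjusted p of 0.01, and 74, 53 and 1 with limma on log2(FPKM + 0.1), log2(FPKM + 1) and log2(FPKM + 0.1) without a filter. It ran from 0 (without HepLPC replicate 1 or 2) to 303 (without NPC_LPC replicate 1), with 84 without NPC_LPC replicate 2. A lone library left in a group is assumed to vary like the other group. The cause was not tested.

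No label states whether same-numbered libraries are paired. Their deviations from the group means correlated at -0.0169, a single value from 2 libraries a group that cannot exclude pairing. With the replicate block edgeR called 0 members and 212 genes.

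Reversed log2 fold changes were those of Nr2f1 (0.448 with limma-voom, 0.173 on log2(FPKM + 0.1) with and without a filter, and 0.0956 with the block) and of Nr2f6 (-0.294 on log2(FPKM + 0.1) with and without a filter, -0.245 on log2(FPKM + 1)). With a library left out, the log2 fold change ran from -1.28 to 2.39 for Nr2f1, -0.0875 to 0.287 for Nr2f6, -0.427 to 1.76 for Esr1, -0.415 to 0.588 for Esrra, -0.758 to 0.0281 for Nr1h2, -0.334 to 0.223 for Nr2f2, -0.371 to 0.0854 for Nr3c1, -1.12 to 0.217 for Nr6a1, -0.646 to 0.007 for Rara, -2.14 to 0.0662 for Rorb, -0.384 to 0.385 for Rxra, -0.0632 to 0.201 for Rxrb and -0.403 to 0.987 for Thrb. Over all alternatives the adjusted p ran from 0.000369 to 0.239 for Rora, 0.00254 to 0.28 for Vdr, 0.00372 to 0.25 for Nr1h4, 0.0187 to 0.285 for Nr4a1, 0.0241 to 0.333 for Nr4a2 and 0.0302 to 0.425 for Nr1h3. Among genes outside the set, the older edgeR form gave an adjusted p of 0.057 for Hnf4a and 0.0598 for Fosl1.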

Other observations

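Counts and FPKM gave Nr2f6 different directions. The log2 ratio of HepLPC over NPC_LPC was 0.099 by mean CPM and -0.23 by mean FPKM. Both were smaller in size than the SE of 0.28 of the fitted log2 fold change. A count, as a share of its library total, divided by its FPKM has the unit of a length. For Nr2f6 this quotient was 11210 and 7080 bases in HepLPC and 7025 and 6446 bases in NPC_LPC. The value of HepLPC replicate 1 exceeds the span of the gene (chr8:71374118-71381967), so the quotient cannot be read as a transcript length. It was 1.74 times as large in the highest library, HepLPC replicate 1, as in the lowest. Of 22 members with enough counts, Nr2f6 alone exceeded 1.5 (4.55%), against 0.709% of 9875 genes, and the member median was 1.12 beside 1.10 for all genes.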
